A study of Homo sapiens with 6 samples.

Results

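The J-domain co-chaperones, the subunits of the CCT chaperonin and the HSP70 adaptors BAG1, BAG2, BAG3, ST13 and STIP1 form one folding network, and their mRNAs are described here by how much of each came down with 2 poly(A)-binding proteins. The members were chosen by gene name in both deposited tables: DNAJA, DNAJB or DNAJC with a number, the CCT subunits and TCP1, and the 5 adaptors, with pseudogenes and antisense transcripts left out. That gave 56 of the 58302 listed genes, namely 4 DNAJA, 13 DNAJB, 26 DNAJC, 8 CCT and 5 adaptor genes. The assay was RNA immunoprecipitation followed by sequencing (RIP-seq) in HepG2 cells, a line from a human hepatocellular carcinoma. Of 6 libraries, 2 were made with an anti-PABPC4 antibody from HepG2 cells in which PABPC4 was overexpressed, 2 with an anti-PABPC1 antibody from HepG2 cells in which PABPC1 was overexpressed, and 2 with control rabbit IgG, 1 from each of these cell populations. Each protein was thus precipitated only from cells that made extra amounts of it. No label says that the 2 PABPC4 libraries, or the 2 PABPC1 libraries, are separate cultures. The spread between them may therefore be technical alone. The 2 IgG libraries came from different cell populations, so their spread also holds any difference between those populations. A p-value that uses the spread between libraries rests on both kinds. The deposited p-values described below do not use that spread.

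Proteins of the HSP70 family bind unfolded stretches of other proteins in a cycle driven by ATP. J-domain proteins bring clients to HSP70 and switch on its ATPase, and each member acts at its own place, such as the ribosome, the endoplasmic reticulum or an endocytic vesicle. BAG proteins release ADP from HSP70, HIP (ST13) holds HSP70 in its ADP-bound state, and HOP (STIP1) ties HSP70 to HSP90. CCT, also called TRiC, is a closed double ring whose subunits are separate gene products, and it folds actin, tubulin and other cytosolic proteins. PABPC1 and PABPC4 coat the poly(A) tails of cytoplasmic mRNA, so a RIP of either protein reads out mRNA that is bound to it.

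Whole reads were recovered from the deposited folds and p-values, because the tables themselves hold only comparisons. The PABPC4 libraries held 850190 and 841327 reads, the PABPC1 libraries 289217 and 277552. In the IgG libraries there were 133030 and 94235 reads. The recovered libraries could not be tied to replicate 1 or 2, and the IgG libraries could not be tied to a cell population. Libraries are called A (the deeper) and B. Both comparisons with IgG used the same pooled IgG libraries. Of the 56 members, 55 had a read in some library, and 53 had reads resolved for each library. DNAJB8 had none, and DNAJB7 and DNAJB13 had PABPC4 reads whose number could not be resolved. A member had a median of 70 PABPC4 reads, 18 PABPC1 reads and 6 IgG reads, so the IgG side set the precision.

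Recovered reads of nuclear-encoded genes made up 78.4% and 77.0% of the PABPC4 libraries, 53.1% and 58.6% of the PABPC1 libraries and 38.5% and 40.5% of the IgG libraries. Because folds were scaled to the whole library, the median gene with at least 20 summed reads stood at 1.93-fold with PABPC4 and 1.47-fold with PABPC1. Scaled by the median of ratios over genes, these medians moved from a log2 fold of 0.95 to 0.13 with PABPC4 and from 0.56 to 0.18 with PABPC1. Calls over all genes then split differently, with 165 higher and 401 lower with PABPC4, where the authors' deposited table has 1188 higher and 193 lower. For PABPC1 the same scaling gave 37 higher and 54 lower, where the authors' deposited table has 235 higher and 34 lower. Folds of members are therefore also given relative to the median gene. Of the 9 listed hepatocyte markers, all but TTR had reads in every library. The 9 summed to 8384 and 9000.1 CPM (reads per 1000000 library reads) in the PABPC4 libraries. Their sums were 6165 and 6968 CPM in the PABPC1 libraries and 3849 and 3661 CPM in the IgG libraries. APOB held 8208 of 14700 PABPC4, 2011 of 3717 PABPC1 and 425 of 857 IgG reads. TTR had 3 PABPC4, 2 PABPC1 and 0 IgG reads, and APOA1 stood at 1.07-fold with PABPC4. Of the 9, 6 were listed higher with PABPC4 and 2 with PABPC1 in the authors' deposited table, and 0 lower with either. The 4 blood markers ran the other way and were all listed lower with PABPC4 and with PABPC1 in the authors' deposited table. They summed to 559 and 392 CPM with PABPC4, 1072 and 1182 CPM with PABPC1 and 3323 and 3438 CPM with IgG, with HBB, the haemoglobin beta chain, holding 511 of 805 PABPC4, 434 of 638 PABPC1 and 503 of 766 IgG reads. Of the 4 fibroblast markers, 3 were lower with PABPC4 and 2 with PABPC1 in the authors' deposited table, and PECAM1 was the only endothelial marker called, lower with PABPC4. The part of these marker differences in the results below was not tested.

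With PABPC4, 10 of the 55 members with a p-value were listed higher than with IgG and 0 lower, at an adjusted p under 0.05 in the authors' deposited table. They were STIP1, ST13, the ribosome and RNA factors DNAJC21, DNAJC2 and DNAJC8, the cytosolic HSP70 partners DNAJB1, DNAJA1 and DNAJC7, and the chaperonin subunits CCT3 and CCT6A. Across all genes with a p-value, 5.54% were listed higher and 0.9% lower. Among genes with at least 20 summed reads, which the called members all had, 13.6% were listed higher, against 10 of 45 members. The median fold was 2.01 for the 45 members and 1.93 for the 8751 genes, with genes that had no IgG read set at a floor of 3 IgG reads over the group. Both PABPC4 libraries lay above both IgG libraries in 33 of the 45 members and below both in 2, where 69.6% of all such genes lay above. Of the 43 with an IgG read, 27 lay above the median gene and 16 below. At an unadjusted p under 0.05 the authors' deposited table held 19 of the 55 members, all with a fold above 1, where it held 11.7% of all genes as higher. That p-value comes from a Yates-corrected chi-square test on reads summed over libraries, so it covers counting error and leaves out the spread between libraries. In limma's voom fit of the same reads, which includes that spread and is centred on the median gene, 0 of 43 members were called for PABPC4 over IgG, where 2.35% of the 7955 genes tested were called higher and 1.63% lower. At an unadjusted p under 0.05 in that fit there were 4 members higher and 4 lower, where 10.4% of genes were higher and 7.13% lower.

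**Figure D1:**
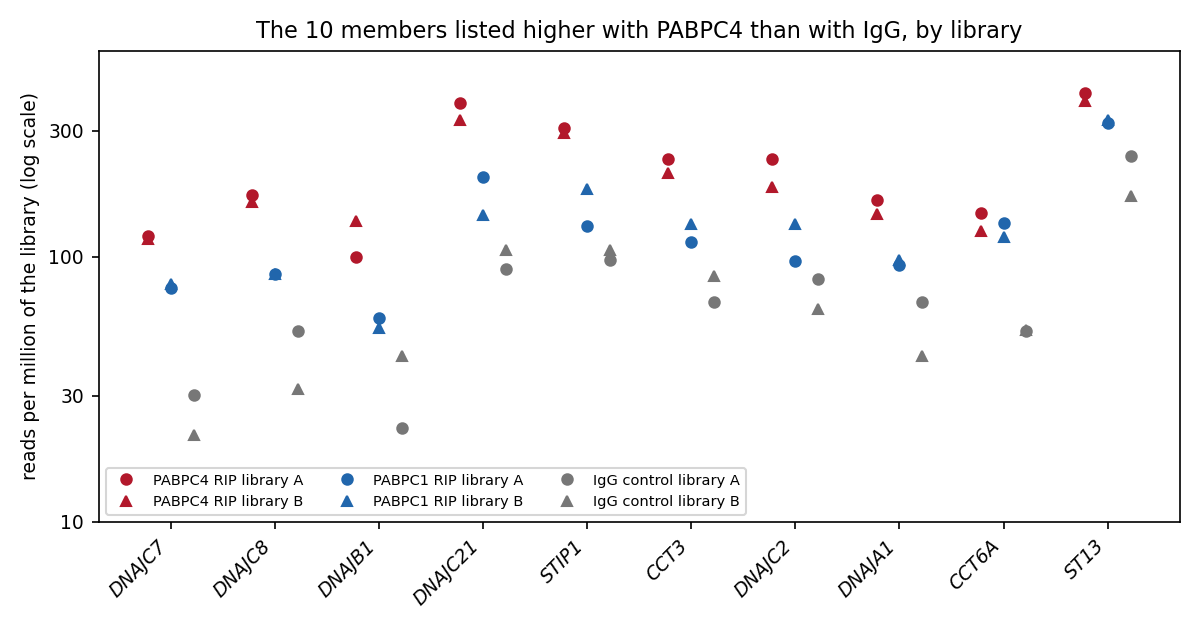
CPM (log scale) of the 10 members listed higher with PABPC4 than with IgG, ordered by fold, with 1 point per library (circles, library A; triangles, library B). In each of the 10 both PABPC4 libraries lie above both IgG libraries, and CCT6A is the member whose PABPC4 and PABPC1 points overlap.

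STIP1, the adaptor between HSP70 and HSP90, stood at 307 and 292 CPM in the PABPC4 libraries, against 97.7 and 106 CPM in the IgG libraries. The authors' deposited table gave it 2.94-fold (507 reads against 23, adjusted p = 7.5e-06), with an exact 95% counting interval of 1.95 to 4.72. Relative to the median gene this was 1.52-fold. ST13, the most abundant member, had 415 and 386 CPM with PABPC4, against 241 and 169.8 CPM with IgG. Its fold in the authors' deposited table was 1.95 (678 reads against 48, adjusted p = 6.0e-04), and it fell on the other side of 1, at 0.988-fold, when totals were taken over nuclear-encoded genes. Neither adaptor's PABPC4 and IgG libraries overlapped. STIP1 kept its call without either IgG library, and ST13 lost it without IgG library B.

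The 3 BAG members did not pass the test. BAG3, the nucleotide exchange factor that leads clients to autophagy, had 89.4 and 74.9 CPM with PABPC4, against 30.1 and 53.1 CPM with IgG. The authors' deposited table listed BAG3 at 1.98-fold (adjusted p = 0.32). BAG2, an inhibitor of the ubiquitin ligase CHIP, had 46 PABPC4 reads against 1 IgG read, which gave 7.18-fold by the authors' deposited table with an interval of 1.06 to 249.4. BAG1 had 56.5 and 52.3 CPM with PABPC4, against 52.6 and 95.5 CPM with IgG, and its libraries overlapped. BAG1, listed at 0.734-fold by the authors' deposited table (interval 0.451 to 1.41, adjusted p = 1), was the second lowest member with at least 20 reads. It became a call, lower at 0.375-fold (adjusted p = 0.027), when totals were taken over nuclear-encoded genes. With those totals, which summed only genes with reads resolved for each library, 111 of all genes were called higher and 456 lower.

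J-domain proteins of the ribosome and of RNA processing held the call with the lowest p. DNAJC21, the relative of yeast Jjj1 that serves the last steps of the large ribosomal subunit, had 379.9 and 329 CPM with PABPC4, against 90.2 and 106 CPM with IgG. The authors' deposited table gave it 3.61-fold (600 reads against 22, interval 2.398 to 5.89, adjusted p = 2.0e-08), or 1.87-fold over the median gene. The PABPC4 and IgG libraries did not overlap. DNAJC21 (chr5:34929559-34958964 in the RefSeq annotation of GRCh38.p14) was also the one member still called under the median of ratios, at 2.05-fold (adjusted p = 0.035), and it was not called with totals over nuclear-encoded genes (1.84-fold, adjusted p = 0.14). DNAJC2, the zuotin relative that sits at the ribosome exit tunnel with HSPA14, had 235 and 184 CPM with PABPC4, against 82.7 and 63.7 CPM with IgG. Its fold in the authors' deposited table was 2.86 (adjusted p = 7.0e-04). DNAJC8, which is tied to the spliceosome, had 172 and 162 CPM with PABPC4, against 52.6 and 31.8 CPM with IgG, or 3.95-fold by the authors' deposited table (adjusted p = 4.8e-04). In all 3 both PABPC4 libraries lay above both IgG libraries. The calls of DNAJC2 and DNAJC8 were lost when either IgG library was left out, while DNAJC21 kept its call. Of the 5 genes of this list, all with at least 20 summed reads, 3 were called, against 13.6% of all such genes and 5.54% of all genes. The median fold of the 5 was 2.86, beside 1.93 for all such genes, with genes that had no IgG read set at the floor. The other 2 did not pass the test: DNAJC17, a splicing-associated member at 2.01-fold by the authors' deposited table (adjusted p = 0.73), and DNAJC24, which had no IgG read.

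Among the cytosolic partners of HSP70, DNAJC7, a J-domain protein with tetratricopeptide repeats that binds both HSP70 and HSP90, had the largest fold of the called members. It had 120.0 and 116 CPM with PABPC4, against 30.1 and 21.2 CPM with IgG, which was 4.60-fold by the authors' deposited table (200 reads against 6, interval 2.02 to 12.3, adjusted p = 0.0031). DNAJB1, the stress-inducible HSP40, had 99.98 and 137 CPM with PABPC4, against 22.6 and 42.4 CPM with IgG, or 3.64-fold by the authors' deposited table (adjusted p = 0.0060). DNAJA1, a farnesylated type I J-domain protein, had 165 and 145 CPM with PABPC4, against 67.7 and 42.4 CPM with IgG, or 2.81-fold by the authors' deposited table (adjusted p = 0.0083). All 3 had few IgG reads (6, 7 and 13), and the call of each was lost when either IgG library was left out. DNAJA2, the close relative of DNAJA1, was one of the most abundant members at 241 and 267 CPM with PABPC4, against 188 and 169.8 CPM with IgG. Its fold in the authors' deposited table was 1.42 (430 reads against 41, interval 1.02 to 1.99, adjusted p = 0.33). DNAJB6, which keeps polyglutamine proteins from aggregating, had 135 and 118 CPM with PABPC4, against 30.1 and 95.5 CPM with IgG. It stood at 2.01-fold by the authors' deposited table (adjusted p = 0.080) and passed with Fisher's exact test (adjusted p = 0.037). DNAJB2 and DNAJB4 were among the lowest J-domain members, at 0.780-fold and 0.836-fold by the authors' deposited table (adjusted p = 1 for each). DNAJB4, with 18.8 and 17.8 CPM in the PABPC4 libraries against 22.6 and 21.2 CPM in the IgG libraries, was 1 of the 2 members with both PABPC4 libraries below both IgG libraries.

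DNAJB1 and DNAJA1 are known targets of the heat shock factor HSF1, and their RefSeq promoter windows (GRCh38.p14, 250 bases before to 50 bases after the transcript start) are printed to show that shared feature, which the choice of members did not use. RIP-seq does not measure promoters, and a match is a description of the letters only. Capitals mark every match to the inverted pentamer pair GAANNTTC or TTCNNGAA, and to the 3-unit forms GAANNTTCNNGAA and TTCNNGAANNTTC, which contain that pair. Each pair reads the same on both strands. The DNAJB1 window (chr19:14518348-14518647, minus strand) is 1 of 3 listed for the gene and the one with the most matches. The DNAJA1 window lies at chr9:33025023-33025322 on the plus strand.
DNAJB1: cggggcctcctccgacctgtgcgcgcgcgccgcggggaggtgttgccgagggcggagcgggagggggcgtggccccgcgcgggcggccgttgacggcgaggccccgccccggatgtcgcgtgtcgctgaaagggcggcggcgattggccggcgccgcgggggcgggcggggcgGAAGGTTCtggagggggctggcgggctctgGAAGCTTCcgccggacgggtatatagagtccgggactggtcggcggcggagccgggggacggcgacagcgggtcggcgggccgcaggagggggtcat
DNAJA1: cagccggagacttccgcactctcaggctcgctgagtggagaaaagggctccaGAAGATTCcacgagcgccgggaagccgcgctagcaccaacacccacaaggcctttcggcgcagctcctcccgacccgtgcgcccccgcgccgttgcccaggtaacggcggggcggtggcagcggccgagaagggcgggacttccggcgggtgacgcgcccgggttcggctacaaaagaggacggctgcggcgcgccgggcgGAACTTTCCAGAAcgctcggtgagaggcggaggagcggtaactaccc
The DNAJB1 window held 2 pairs, with first bases at positions -77 and -47 from the transcript start. The DNAJA1 window held 1 pair with its first base at position -198 and a 3-unit match that began at base 4 of the transcript. A pair occurred in 13.5% of all 35116 promoter windows and a 3-unit form in 0.490%. RefSeq windows were matched for 50 of the 56 members, and 14 of their 65 windows held a pair.

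J-domain members of the endoplasmic reticulum were not called. The 7 with at least 20 PABPC4 and IgG reads and an IgG read had folds between 1.11 and 8.28 by the authors' deposited table and a lowest adjusted p of 0.18. That lowest p belonged to DNAJC10, the disulfide reductase ERdj5, which had 81.2 and 76.1 CPM with PABPC4, against 45.1 and 10.6 CPM with IgG. The authors' deposited table listed DNAJC10 at 2.81-fold. DNAJB11, the BiP partner ERdj3, had 52.9 and 41.6 CPM with PABPC4, against 15.0 and 10.6 CPM with IgG, or 3.68-fold by the authors' deposited table (adjusted p = 0.27). DNAJB12, anchored in the reticulum membrane, reached the highest fold of the members with an IgG read, 8.28, in the authors' deposited table, on 53 reads against 1 (interval 1.22 to 286, adjusted p = 0.32). In 6 of the 7 both PABPC4 libraries lay above both IgG libraries, a share to be read beside the 69.6% of all genes.

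The mitochondrial list had 3 such members, with folds of 1.35 to 3.42 in the authors' deposited table and a lowest adjusted p of 0.30. DNAJC15, of the inner membrane import machinery, marked the upper end on 22 reads against 1 (interval 0.478 to 122). The vesicle list ran lower. DNAJC5, the cysteine string protein of secretory and synaptic vesicles, had 28.2 and 26.1 CPM with PABPC4, against 30.1 and 63.7 CPM with IgG, and both PABPC4 libraries lay below both IgG libraries. At 0.580-fold (46 reads against 10, interval 0.308 to 1.37, adjusted p = 0.87) in the authors' deposited table, it was the lowest member with at least 20 reads. DNAJC13, the endosomal protein RME-8, had 70.6 and 61.8 CPM with PABPC4, against 90.2 and 42.4 CPM with IgG, or 0.997-fold by the authors' deposited table (interval 0.554 to 1.70, adjusted p = 1). The third vesicle gene lay between these folds, so the list had a median of 0.891-fold with 0 of 3 called. Relative to the median gene, DNAJC5 stood at 0.300-fold, and it was called lower when totals were taken over nuclear-encoded genes (0.297-fold, adjusted p = 0.045).

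Of the remaining J-domain members, DNAJC25 had 37.6 and 29.7 CPM with PABPC4, against 15.0 and 0 CPM with IgG, or 4.47-fold by the authors' deposited table (interval 1.01 to 32.4, adjusted p = 0.46). DNAJC22 had 41.2 and 41.6 CPM with PABPC4, against 37.6 and 42.4 CPM with IgG, and was listed at 1.03-fold by the authors' deposited table (adjusted p = 1). These show how wide the intervals are at such depths, since neither fold differs from the median gene beyond its interval. The 10 J-domain members not named by call, reads or rank of fold, DNAJC17 among them, that had at least 20 reads and an IgG read spanned 0.891-fold to 2.13-fold by the authors' deposited table, with 0 called. In 8 members no IgG read was recovered, and these had between 1 and 24 PABPC4 reads. Of these, DNAJC24, which acts in diphthamide synthesis, and DNAJC27 had 24 PABPC4 reads each. Set against that floor of 3 IgG reads over the group, each stood at 1.07-fold. The lower limit of the exact counting interval was 0.809-fold for each, so neither was shown to be higher. The authors' deposited table gave each an adjusted p of 0.69.

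**Figure D2:**
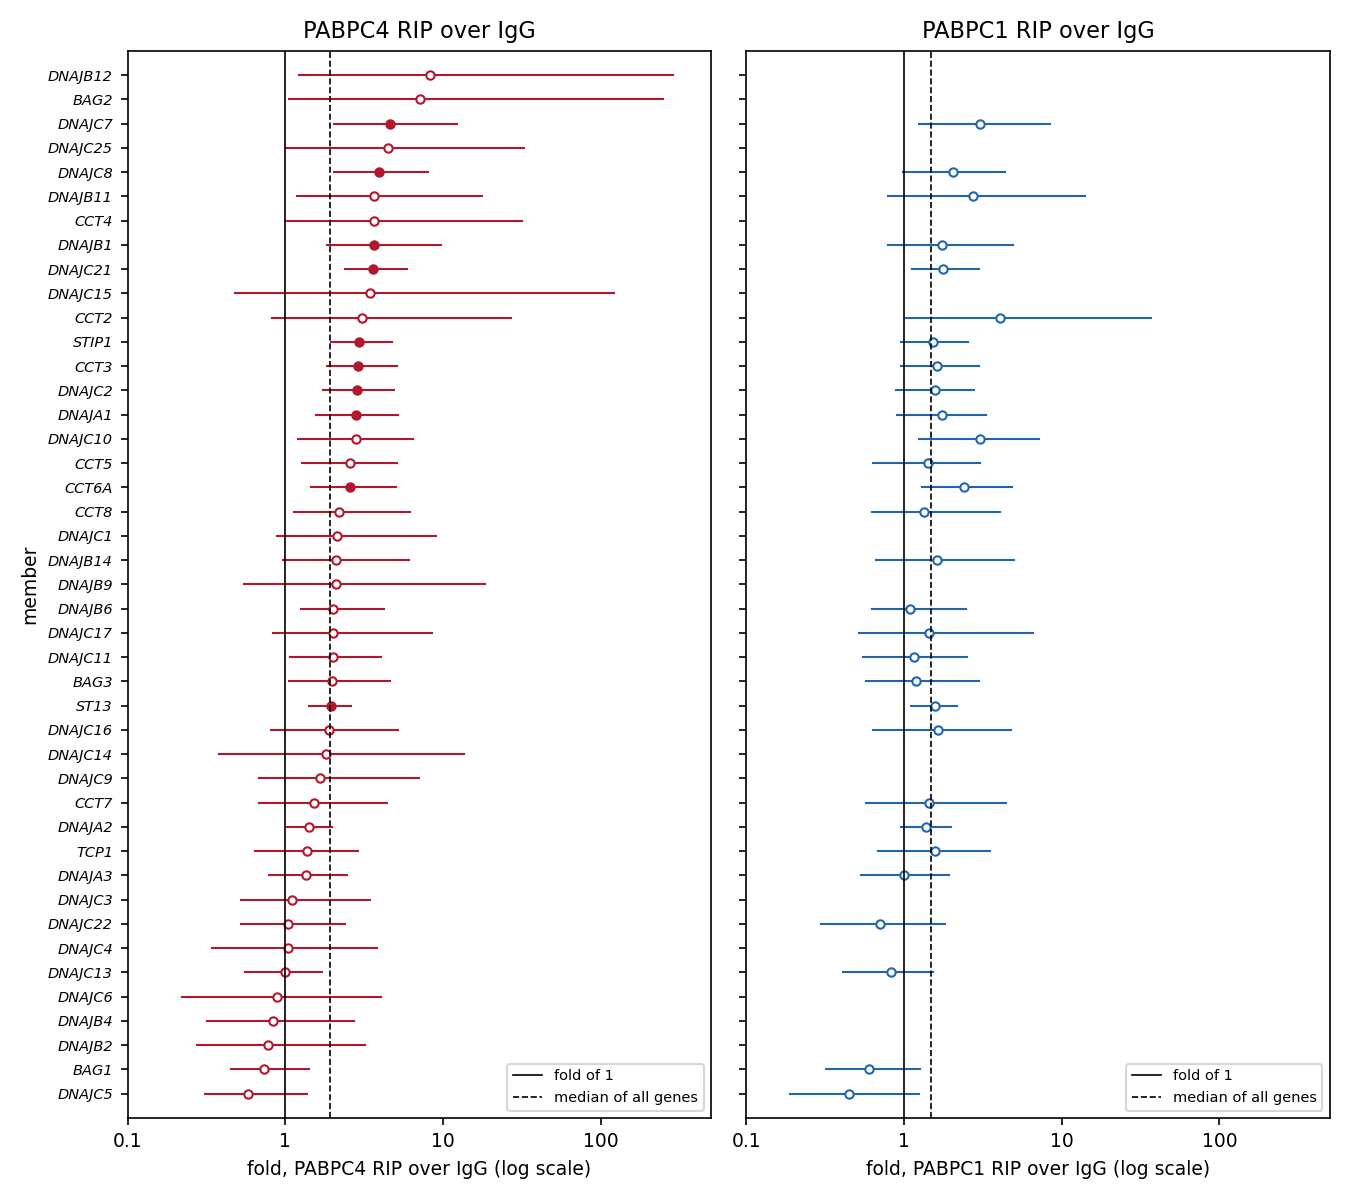
Deposited folds of RIP over IgG (log scale) for the 43 members with an IgG read and at least 20 PABPC4 and IgG reads, with exact 95% counting intervals from the summed reads; the PABPC1 panel shows the 29 of them with at least 20 PABPC1 and IgG reads. Filled points are the 10 members called with PABPC4, the solid line is a fold of 1, and the dashed line is the median of all genes (1.93 for PABPC4, 1.47 for PABPC1).

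The chaperonin subunits share a ring but not a level in the RIP. All 8 had a fold above 1 with PABPC4 in the authors' deposited table, from 1.38 for TCP1 to 3.65 for CCT4, with a median of 2.58-fold beside 1.93-fold for all genes. Relative to the median gene, TCP1 stood at 0.712-fold and CCT7 at 0.788-fold, and the other subunits from 1.13-fold (CCT8) to 1.89-fold (CCT4). Of the 8 subunits, 2 were called. CCT3, the gamma subunit (chr1:156308968-156338292), had 235 and 208 CPM with PABPC4, against 67.7 and 84.9 CPM with IgG, or 2.90-fold by the authors' deposited table (375 reads against 17, interval 1.83 to 5.14, adjusted p = 2.4e-04). CCT6A, the zeta subunit (chr7:56051765-56063989), had 147 and 125 CPM with PABPC4, against 52.6 and 53.1 CPM with IgG, or 2.57-fold by the authors' deposited table (interval 1.45 to 5.06, adjusted p = 0.024). The call of CCT6A was lost without PABPC4 library A and without either IgG library. CCT3 kept its call without IgG library B and lost it without IgG library A.

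The other 6 subunits did not pass the test. CCT5, the epsilon subunit, had 111 and 99.8 CPM with PABPC4, against 60.1 and 21.2 CPM with IgG, or 2.58-fold by the authors' deposited table (adjusted p = 0.099). With Fisher's exact test CCT5 passed (adjusted p = 0.043). CCT8, the theta subunit, had 81.2 and 67.7 CPM with PABPC4, against 15.0 and 53.1 CPM with IgG, or 2.19-fold by the authors' deposited table (adjusted p = 0.25). CCT4, the delta subunit, had 35.3 and 30.9 CPM with PABPC4, against 7.52 and 10.6 CPM with IgG. CCT2, the beta subunit, had 31.8 and 23.8 CPM with PABPC4, against the same IgG levels. Both rest on 2 IgG reads, and their folds of 3.65 (CCT4) and 3.06 (CCT2) in the authors' deposited table had intervals that included 1. CCT7, the eta subunit, had 41.2 and 41.6 CPM with PABPC4, against 22.6 and 31.8 CPM with IgG, or 1.52-fold by the authors' deposited table (adjusted p = 1). TCP1, the alpha subunit, had 57.6 and 44.0 CPM with PABPC4, against 52.6 and 21.2 CPM with IgG, and was the only subunit in which the PABPC4 and IgG libraries overlapped. In RPKM, which is CPM per kilobase of gene, levels with PABPC4 ranged from 6.42 RPKM for CCT2 to 55.2 RPKM for CCT3, with CCT6A second at 34.8 RPKM. In the IgG libraries the order was alike at its ends, with CCT2 lowest at 2.10 RPKM and CCT3 highest at 19.0 RPKM.

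**Figure D3:**
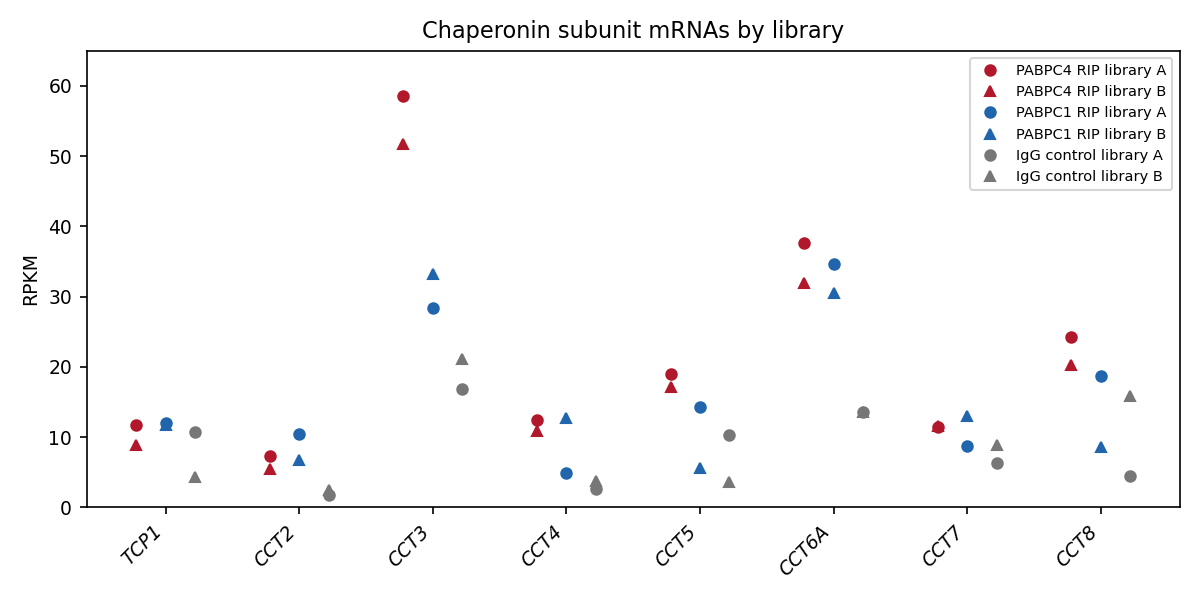
RPKM of the 8 chaperonin subunit mRNAs in each library (circles, library A; triangles, library B). CCT3 and CCT6A stand highest with PABPC4, at means of 55.2 and 34.8 RPKM, and CCT2 lowest at 6.42 RPKM.

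Genes that work with the members were read from lists of genes grouped by function. Their counts stand beside 5.54% of all genes listed higher with PABPC4 and 1.34% with PABPC1 in the authors' deposited tables. Among genes with at least 20 summed reads these shares were 13.6% and 5.2%. The median such gene stood at 1.93-fold with PABPC4 and 1.47-fold with PABPC1. Of the 16 HSP70, HSP90 and mitochondrial chaperonin genes, 8 were listed higher with PABPC4 and 7 with PABPC1 in the authors' deposited table, and 0 lower with either. They included HSPA5 (BiP), at 5.30-fold with PABPC4 and 2.19-fold with PABPC1, and HSPA9 (mitochondrial HSP70), at 4.53-fold and 2.67-fold, in the authors' deposited tables. The constitutive HSP70 gene HSPA8 was called with PABPC4 at 1.97-fold (729 reads against 47) and not with PABPC1 in the authors' deposited tables. Summed, the 16 genes had 14002 and 13233 CPM with PABPC4, 6579.8 and 6961 CPM with PABPC1 and 4195 and 4223 CPM with IgG, against 4108 and 3856, 2621 and 2753, and 1849 and 1825 CPM for all members together. Of the 9 prefoldin and CCT helper genes, 3 were listed higher with PABPC4 in the authors' deposited table: PFDN2 and PFDN4, subunits of prefoldin, at 3.52-fold and 11.8-fold, and PDCL3, a phosducin-like helper, at 3.22-fold. Of 9 genes for actin and tubulin, the main clients of CCT, 1 was listed higher with PABPC4 in the authors' deposited table, ACTG1 at 1.33-fold (adjusted p = 0.0498), while ACTB stood at 0.964-fold. Of 23 other co-chaperones, 2 were listed higher with PABPC4 in the authors' deposited table. They were CDC37, the kinase-specific HSP90 partner, at 3.01-fold and SEC63, the translocon J-domain protein whose symbol lies outside the naming rule, at 3.39-fold. SEC63 was also the 1 of the 23 listed higher with PABPC1 in the authors' deposited table, at 2.74-fold (138 reads against 20, adjusted p = 0.0022).

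With PABPC1, 0 of the 53 members with a p-value were called against IgG in the authors' deposited table, where 1.34% of all genes were listed higher and 0.194% lower, and 5.2% higher among genes with at least 20 reads. At an unadjusted p under 0.05 there were 6 members, all with a fold above 1, where 5.98% of all genes were higher. These shares are not matched for depth either. Of the 17565 genes, 4502 had at least 20 recovered summed reads, against 29 of the 53 members. Limma's voom fit called 0 of 43 members, where 0.528% of the 7955 genes were called higher and 0.427% lower, and Fisher's exact test called 0. At an unadjusted p under 0.05 the voom fit held 2 members higher and 4 lower, where 7.69% of genes were higher and 5.3% lower. The 29 members with at least 20 summed reads had a median of 1.57-fold, beside 1.47-fold for all 4502 such genes. Both PABPC1 libraries lay above both IgG libraries in 17 of the 29 and below both in 3, where 52.8% of all such genes lay above. The comparison shares its IgG libraries with that of PABPC4, so the same IgG reads stand under both folds of a member.

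The 6 members were CCT6A, ST13, DNAJC10, DNAJC7, DNAJC21 and DNAJB12. CCT6A had 135 and 119 CPM with PABPC1, against 52.6 and 53.1 CPM with IgG, and the lowest p of all members, with a log2 fold of 1.26 from the authors' deposited table (interval of the fold 1.30 to 4.87, adjusted p = 0.21). ST13 had 322 and 328 CPM with PABPC1, against 241 and 169.8 CPM with IgG, or 1.58-fold by the authors' deposited table (adjusted p = 0.29). In both the libraries did not overlap, yet neither passed the adjustment. DNAJC10 had 76.1 and 93.7 CPM with PABPC1, against 45.1 and 10.6 CPM with IgG, or 3.03-fold by the authors' deposited table (adjusted p = 0.37). DNAJC7 had 76.1 and 79.3 CPM with PABPC1, against 30.1 and 21.2 CPM with IgG, or 3.02-fold by the authors' deposited table (adjusted p = 0.38). DNAJC21 had 201 and 144 CPM with PABPC1, against 90.2 and 106 CPM with IgG, or 1.75-fold by the authors' deposited table (adjusted p = 0.42). DNAJC10 and DNAJC7 stood at 2.06-fold and 2.05-fold over the median gene, on 7 and 6 IgG reads. DNAJB12 had 18 PABPC1 reads against 1, and CCT2 had 21 against 2, with folds of 8.43 and 4.06 in the authors' deposited table and intervals of 1.14 to 301 and 1.03 to 37.0. STIP1 had 131 and 180.1 CPM with PABPC1, against 97.7 and 106 CPM with IgG, or 1.53-fold by the authors' deposited table (adjusted p = 0.92). The authors' deposited table listed CCT3 at 1.62-fold and DNAJB11 at 2.75-fold. Of the chaperonin subunits, 7 had at least 20 PABPC1 and IgG reads, with folds from 1.34 for CCT8 to 4.06 for CCT2 by the authors' deposited table, and both PABPC1 libraries lay above both IgG libraries in 4 of them. BAG3 had 44.9 and 54.0 CPM with PABPC1, against 30.1 and 53.1 CPM with IgG, or 1.19-fold by the authors' deposited table (adjusted p = 1).

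The low end was again DNAJC5, at 27.7 and 14.4 CPM with PABPC1, against 30.1 and 63.7 CPM with IgG, or 0.449-fold by the authors' deposited table (interval 0.191 to 1.24). BAG1 had 38.0 and 50.4 CPM with PABPC1, against 52.6 and 95.5 CPM with IgG, or 0.597-fold by the authors' deposited table (interval 0.322 to 1.26). DNAJC22 and DNAJC13 followed, at 0.705-fold and 0.825-fold by the authors' deposited table. None of the 4 passed, with an adjusted p of 1 each, and in DNAJC5, BAG1 and DNAJC22 both PABPC1 libraries lay below both IgG libraries. Within the PABPC1 pair, some members were split unevenly between libraries. DNAJB6 had 28 and 11 reads, CCT5 had 24 and 9, and CCT8 had 18 and 8. Over the 26 members with at least 20 PABPC1 reads the between-library chi-square divided by its degrees of freedom was 1.27, beside 1.22 over 3621 genes, and it was 0.823 over 44 members for PABPC4, beside 1.17 over 8455 genes.

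The 2 RIPs were then compared with each other, which leaves IgG out of the ratio itself. The IgG libraries still entered the scaling and the shared estimate of the spread. The comparison asks whether a member lay further toward PABPC4 or PABPC1 than the median gene did. In limma's voom fit with median-of-ratios scaling, 0 of the 43 members tested were called, where 2.4% of 7955 genes were called higher with PABPC4 and 2.07% lower. At an unadjusted p under 0.05 there were 3 members higher and 4 lower, where 8.55% of genes were higher and 7.88% lower. Limma-trend also called 0 members. The median log2 ratio of the members was 0.23, beside 0.00 for all genes, with 26 members above 0 and 17 below. With library totals instead, 1111 genes were called higher and 53 lower, against 191 and 165 with the median of ratios, and 9 members were called higher.

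DNAJC21 came closest. It had 379.9 and 329 CPM with PABPC4, against 201 and 144 CPM with PABPC1, a log2 ratio of 0.60 ± 0.18 (SE, n = 2 libraries each, limma voom adjusted p = 0.051). Its adjusted p in limma voom was under 0.05 with upper-quartile scaling (0.037), with a minimum of 20 reads (0.015), with all genes kept (0.0499) and without the IgG libraries (0.0088). STIP1 had 307 and 292 CPM with PABPC4, against 131 and 180.1 CPM with PABPC1, a log2 ratio of 0.50 ± 0.18 (limma voom adjusted p = 0.12). DNAJC8 had 172 and 162 CPM with PABPC4, against 86.4 and 86.5 CPM with PABPC1, a log2 ratio of 0.48 ± 0.23 (limma voom adjusted p = 0.30). In these 3 both PABPC4 libraries lay above both PABPC1 libraries in CPM, as they did in 32 of the 43 members and in 57.6% of the genes tested.

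On the other side, CCT2 had 31.8 and 23.8 CPM with PABPC4, against 44.9 and 28.8 CPM with PABPC1, a log2 ratio of -0.87 ± 0.38 (limma voom adjusted p = 0.23). TCP1 had 57.6 and 44.0 CPM with PABPC4, against 58.8 and 57.6 CPM with PABPC1, a log2 ratio of -0.68 ± 0.31 (limma voom adjusted p = 0.25). DNAJC10 had 81.2 and 76.1 CPM with PABPC4, against 76.1 and 93.7 CPM with PABPC1, a log2 ratio of -0.57 ± 0.26 (limma voom adjusted p = 0.26). DNAJA2 stood at -0.39 ± 0.16 (limma voom adjusted p = 0.19). The CPM of CCT2 and DNAJC10 overlapped between the 2 proteins, and a log2 ratio of 0 stands for the level of the median gene, not for equal CPM. The ends of the J-domain range were DNAJC4, at 1.28 ± 0.71 on 29 PABPC4 and 4 PABPC1 reads, DNAJC25 at 0.93 ± 0.54 and DNAJC15 at 0.92 ± 0.67, and on the low side DNAJB12 at -0.49 ± 0.39 and DNAJC14 at -0.44 ± 0.57. BAG2 stood at 0.97 ± 0.56, BAG3 at 0.24 ± 0.30, ST13 at -0.15 ± 0.14 and BAG1 at -0.18 ± 0.33. None of these 9 passed. The chaperonin spread to both sides, with CCT5 at 0.54 ± 0.32, CCT3 at 0.38 ± 0.20, CCT8 at 0.32 ± 0.35 and CCT4 at 0.01 ± 0.43, then CCT6A at -0.36 ± 0.21 and CCT7 at -0.38 ± 0.35. Its median was -0.17, beside 0.29 for the 20 DNAJC members tested, a difference that was not tested.

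**Figure D4:**
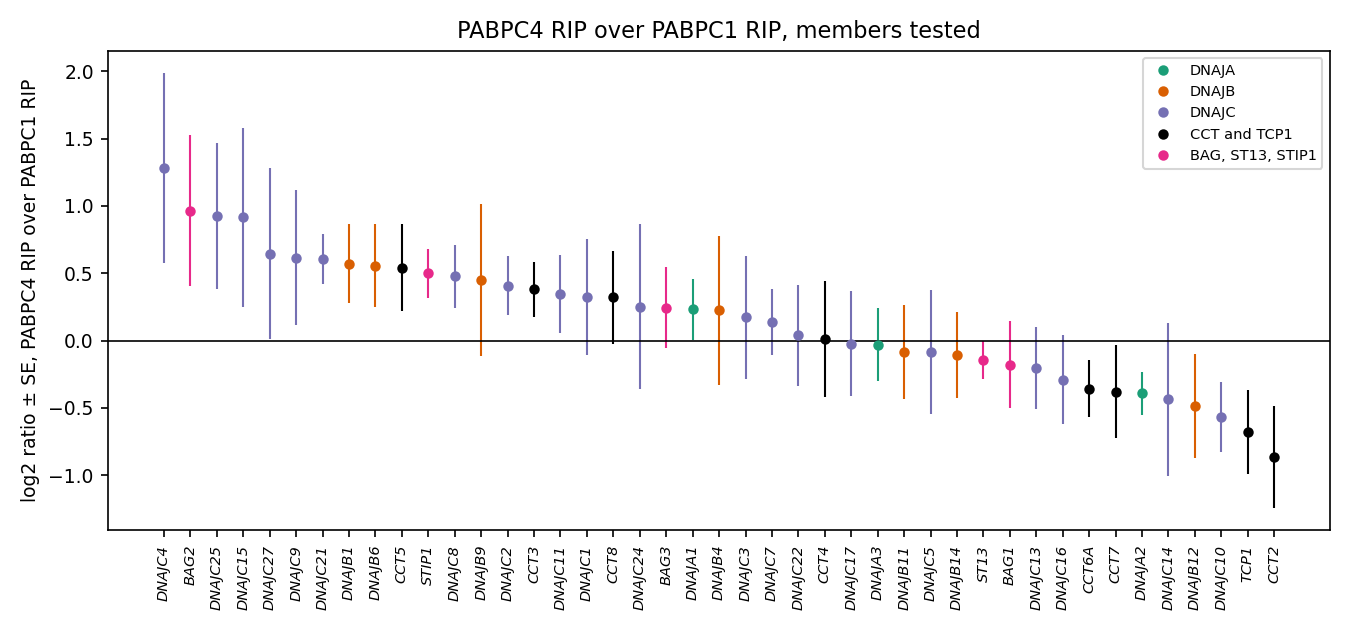
Log2 ratio of PABPC4 RIP over PABPC1 RIP from limma voom for the 43 members tested, with bars of 1 SE, coloured by family. The values run from 1.28 for DNAJC4 to -0.87 for CCT2, and 0 of 43 passed at an adjusted p under 0.05.

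Some members have near-identical copies that can share their reads. CCT8P1 held 75 PABPC4, 7 PABPC1 and 1 IgG reads and CCT6P1 held 16, 0 and 1, beside 126, 26 and 7 for CCT8 and 230, 72 and 12 for CCT6A. CCT6P3, a further copy, held 14, 4 and 0. Copies of ST13, DNAJC8, DNAJB1 and DNAJC19 also had reads, for instance 26, 11 and 4 for ST13P6 and 11, 2 and 0 for DNAJC8P1. Copies of STIP1, TCP1 and DNAJB5 had PABPC4 reads whose number could not be resolved. The levels of CCT8, CCT6A, ST13, DNAJC8, STIP1 and TCP1 are therefore uncertain, to a degree that the reads of the copies do not bound. The sources used here do not give how the authors' counting split such reads. Nor do they give whether strand was used in counting, and reads of DNAJC3, DNAJC9 and DNAJC27 cannot be told apart from those of their antisense transcripts, of which DNAJC3-AS1 held 22 PABPC4, 5 PABPC1 and 1 IgG reads. The length that the deposited fold implies for a gene showed little relation to the fold. Spearman's rho over members was -0.07 for PABPC4 over IgG (43 members, 0.05 over 8284 genes) and -0.17 for PABPC4 over PABPC1 (43 members, 0.01 over 7955 genes), as descriptions across genes that share the same libraries.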

How the data were processed

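RIP-seq of PABPC4, PABPC1 and IgG (2 libraries each) was read from 2 deposited tables, 1 for each protein against IgG. Per the submitters' processing notes, Bowtie2 2.4.1, STAR 2.7.10a and featureCounts 2.0.1 were used with GRCh38 and hg38, and the sources used here do not give the step each served. Per the file headers, the authors deposited for each gene a fold (FC, a linear ratio), a p-value and a Benjamini-Hochberg adjusted p-value. The tables hold 0 columns of single-library values, so whole reads were recovered from them. The deposited fold equalled mean RPKM of the RIP over mean RPKM of IgG plus 0.005 RPKM. The deposited p-value was matched by a Yates-corrected chi-square test on summed reads, and sums were kept only if they gave it back. The largest log ratio was then 4.4e-11 (PABPC1) and 7.9e-11 (PABPC4), and 0 members' calls differed. Because the recovery sought this match, these values are not a separate check of the reads. The IgG totals gave a whole gene length within 0.001 nt for 870 of 870 genes with 1 IgG read, and for 0 of 870 when shifted by 1 read. Sums were recovered for 18302 and library reads for 17828 of 22607 genes with a read. On simulated tables with 17237 genes with a read, all 16442 sums and 16317 library sets that were returned were right. Those tables were drawn from genes already resolved and written with the same formulas. They therefore cannot show whether the formulas hold for the deposited tables, or how unresolved genes behave.

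CPM and RPKM used the recovered library totals. Intervals are exact 95% binomial and cover counting error only, as does the floor of 3 reads, since PCR reads without molecular identifiers are not independent molecules. Calls against IgG are the authors' deposited adjusted p-values under 0.05. PABPC4 over PABPC1 was tested with limma 3.58.1 (voom, R 4.3.3) over 7955 genes with at least 10 reads in 2 libraries, scaled by the median of ratios. In simulated reads for that comparison on 7932 genes it called 13 of 50 genes raised 2-fold, 42 of 50 raised 4-fold and 6 of 7772 unchanged. Of 50 genes lowered to 0.5-fold, 38 were tested and 8 called. Of 50 lowered to 0.25-fold, 22 were tested and 21 called. The simulated spread beyond counting error was a fixed setting, not estimated from these data. Other values used Python 3.11.15 and scipy 1.17.1. Alternatives covered scaling, read minimum, test, IgG libraries and each library left out. Totals over nuclear-encoded genes summed only genes with reads resolved for each library, so they are partial.

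The members, gene lists and tests were chosen with earlier results of these data known. All CCT and adaptor genes are named. J-domain members are named if called, if among the 8 with the most reads, or if among the 3 highest or lowest of a comparison with at least 20 summed reads. DNAJC17, DNAJC24, DNAJC27, the genes of the partner lists and the low-read members without library reads were named after their values were seen.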

Additional observations from a re-analysis of the deposited data

How the results depend on the processing

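Calls of members depended on the scaling and on the IgG libraries. For PABPC4 over IgG, the 10 calls became 1 higher under the median of ratios (DNAJC21) and 2 lower with totals over nuclear-encoded genes (BAG1 and DNAJC5), where ST13 stood at 0.988-fold. Limma voom gave 0, Fisher's exact test 12 and a minimum of 10 reads 11. Over all genes, 1188 higher and 193 lower became 165 and 401 under the median of ratios and 111 and 456 with nuclear-encoded totals. Fisher's exact test gave 1562 and 171, a minimum of 10 reads 1402 and 123, and limma voom 187 and 130. Leaving out 1 library gave 3 to 10 member calls: 3 without IgG library A (DNAJC21, STIP1 and ST13), 3 without IgG library B (DNAJC21, STIP1 and CCT3) and 9 without PABPC4 library A. Calls over all genes also dropped, to 370 higher without IgG library A and 645 without IgG library B, from 1188. The members' median log2 fold of 1.01 (0.95 over all genes) was 0.22 under the median of ratios (all genes 0.13) and 0.053 with nuclear-encoded totals (all genes -0.03), and 0.63 to 1.16 with 1 library left out (all genes 0.53 to 0.95). For PABPC1 over IgG, each alternative run gave 0 calls. Its median of 0.65 (all genes 0.56) was 0.25 under the median of ratios (all genes 0.18), 0.14 with nuclear-encoded totals (all genes 0.06), 0.52 over the 44 members with at least 1 read in both (all genes 0.33), and 0.54 to 0.72 with 1 library left out (all genes 0.48 to 0.63).

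For PABPC4 over PABPC1, the 0 calls became 9 with library totals, 1 with upper-quartile scaling, 1 with every gene kept, 1 with a minimum of 20 reads, and 2 (DNAJC21 and STIP1) with the IgG libraries left out of the fit. Leaving out 1 library gave 0 to 4 calls, the lone library being assumed to vary like the other groups. There were 2 without PABPC4 library A (DNAJC21 and DNAJB1), 4 without PABPC4 library B (DNAJC21, DNAJC2 and STIP1 higher, DNAJA2 lower), 1 without either IgG library (DNAJC21) and 0 without either PABPC1 library, where 6 and 11 genes of all were called. The median of 0.23 over 43 members (all genes 0.00) was 0.68 with library totals (all genes 0.45) and 0.28 without IgG (all genes 0.07). Other settings changed which members were tested: it was 0.015 over 53 members with every gene kept (all genes -0.29) and 0.088 over 36 members with a minimum of 20 reads (all genes 0.03). With 1 library left out it ran from -0.026 over 28 members without PABPC4 library A (all genes -0.08) to 0.24 over 43 members without IgG library B (all genes 0.02). Calls over all genes were 191 higher and 165 lower in the main fit and 1111 and 53 with library totals. They were 200 and 142 with upper-quartile scaling, 264 and 210 with a minimum of 20 reads and 328 and 200 without IgG. Limma-trend gave 9 higher and 19 lower, and keeping every gene gave 213 higher and 1666 lower. The cause of these changes was not tested.

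No paired analysis was possible because the recovered libraries carry no replicate number. Of 53 members, 8 had fewer than 20 summed reads in the PABPC4 comparison and 24 in the PABPC1 comparison, and their folds have wide counting intervals.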
